A study of Mus musculus with 12 samples.

Results

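The genes described here encode the subunits of the mouse proteasome, its activators, its inhibitor and the chaperones that assemble it. They were taken as the protein-coding genes whose GENCODE M21 symbol starts with Psma to Psmg followed by a digit, which gave 50 genes among the 55487 gene rows of the count table. RNA was sequenced from 12 libraries in 4 groups of 3. The groups were Hepa1 cells in ferroptotic medium, Hepa1 cells in control medium, mouse embryonic fibroblasts (MEFs) in ferroptotic medium and MEFs in control medium. The Hepa1 cells are an established hepatoma line of the mouse with a wild type label, while the MEFs were primary cells labelled Bach1-/-. Ferroptotic medium had been conditioned for 48 h by immortalized MEFs in which Bach1 was re-expressed, and control medium by control immortalized MEFs. Recipient cells of all 4 groups stayed 4 days in such medium, which contained 10% serum and was supplemented with vitamin E at 0.4 mg/mL and 2-mercaptoethanol at 0.1 mM. All Hepa1 libraries come from 1 line and there were no wild-type MEFs, so in any contrast of the cells the cell type, the Bach1 genotype and the culture history cannot be told apart. The medium also reaches cells whose number and growth may differ, and in bulk RNA a change in the mix of cells cannot be told apart from a change of RNA per cell.

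The proteasome degrades ubiquitin-tagged proteins. Its 20S core is a barrel of alpha and beta rings whose proteolytic sites lie on Psmb5, Psmb6 and Psmb7, and the 19S particle, made of an ATPase ring, a base and a lid, binds, unfolds and feeds in the substrate. In cells exposed to interferon, and constitutively in immune cells, the catalytic subunits are replaced by Psmb8, Psmb9 and Psmb10, which form the immunoproteasome and favour peptides suited to MHC class I, while the activator PA28, encoded by Psme1 and Psme2, is induced by the same signal.

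Of the 50 members, 48 had reads in all 12 libraries and were tested in every fit. The other members were Psma8, a testis alpha subunit, with 5 reads in 3 libraries, and Psmb11, the thymus catalytic subunit, with 2 reads in 2 libraries. Libraries held 18.58 M to 23.4 M counts. The members took 0.568% ± 0.0011 of all counts in Hepa1 in ferroptotic medium and 0.547% ± 0.00176 in Hepa1 in control medium (SD, n = 3 each). They took 0.307% ± 0.00435 in MEFs in ferroptotic medium and 0.313% ± 0.00544 in MEFs in control medium. Levels below are normalised CPM, read counts put on 1 common scale over all 12 libraries, and a change is a log2 ratio from the fit of the comparison it belongs to. A call is an adjusted p under 0.05 in edgeR's quasi-likelihood test, adjusted over all genes tested. Some members share sequence with other genes, so their counts are less certain. Of the 50-base windows of Psme2b 69.3% occur in another annotated gene. For Psme2 it is 59.3%, for Psmb5 57.1%, for Psmb3 55.8% and for Psma5 55.4%. Psmb10 and Psmd8 share 0. Psmb9 shares 12.5% with Tap1, whose exons it overlaps on the other strand, and Psmb8 shares 5.83% with Gm20496.

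The start regions of the 3 immunoproteasome genes and of Psme1 and Psme2 are shown because interferon is known to induce these genes. In Hepa1 in ferroptotic medium 4 of the 5 were called higher, where 29.3% of all genes tested were, and Psme2 was not called (0.16, adjusted p = 0.165, edgeR). In MEFs only Psmb9 and Psmb10 of these genes were called higher, where 27.8% of all genes were. Whether interferon had a part was not tested. The windows run from 250 bases before to 50 bases after the transcript start in RefSeq, build GRCm38.p6, and are given on the gene's own strand. They are chr17:34197945-34198244 on the plus strand for Psmb8, chr17:34187281-34187580 on the minus strand for Psmb9, chr8:105938343-105938642 on the minus strand for Psmb10, chr14:55578244-55578543 on the plus strand for Psme1 and chr14:55591052-55591351 on the minus strand for Psme2, the farther upstream of 2 windows listed for that gene. Capitals mark a match on either strand to the interferon-stimulated response element GAAANNGAA or the CCAAT box CCAAT.
Psmb8: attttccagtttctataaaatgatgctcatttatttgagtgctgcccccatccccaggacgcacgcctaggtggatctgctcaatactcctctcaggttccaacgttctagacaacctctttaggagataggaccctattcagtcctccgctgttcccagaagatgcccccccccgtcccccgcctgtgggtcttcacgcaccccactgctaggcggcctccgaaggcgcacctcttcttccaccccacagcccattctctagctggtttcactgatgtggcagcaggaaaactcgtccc
Psmb9: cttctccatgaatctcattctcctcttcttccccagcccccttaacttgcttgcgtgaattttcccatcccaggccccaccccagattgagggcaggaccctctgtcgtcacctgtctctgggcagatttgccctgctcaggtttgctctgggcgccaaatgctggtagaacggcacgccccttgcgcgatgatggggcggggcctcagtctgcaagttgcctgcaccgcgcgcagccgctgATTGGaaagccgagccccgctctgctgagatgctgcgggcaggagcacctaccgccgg
Psmb10: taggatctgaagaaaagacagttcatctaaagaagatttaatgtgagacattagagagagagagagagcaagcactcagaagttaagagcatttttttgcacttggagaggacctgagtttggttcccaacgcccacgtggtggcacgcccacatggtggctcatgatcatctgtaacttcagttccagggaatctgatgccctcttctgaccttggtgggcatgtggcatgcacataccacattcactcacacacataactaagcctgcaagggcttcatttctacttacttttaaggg
Psme1: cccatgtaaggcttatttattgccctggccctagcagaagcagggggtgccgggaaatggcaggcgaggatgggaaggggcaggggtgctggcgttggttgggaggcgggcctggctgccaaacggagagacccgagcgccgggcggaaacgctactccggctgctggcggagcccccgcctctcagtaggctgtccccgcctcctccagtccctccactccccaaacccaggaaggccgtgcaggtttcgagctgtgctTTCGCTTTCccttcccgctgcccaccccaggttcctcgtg
Psme2: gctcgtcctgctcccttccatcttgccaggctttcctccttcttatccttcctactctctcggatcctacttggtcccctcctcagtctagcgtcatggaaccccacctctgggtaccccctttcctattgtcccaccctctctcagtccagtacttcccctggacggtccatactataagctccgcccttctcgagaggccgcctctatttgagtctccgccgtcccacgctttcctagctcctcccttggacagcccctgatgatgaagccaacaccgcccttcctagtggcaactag
Psmb9 held a CCAAT box on the other strand, and Psme1 a response element match 10 bases after the start on the other strand. The windows of Psmb8, Psmb10 and Psme2 held no match to either. In GENCODE, Psmb8 (34197721), Psmb9 (34187764) and Psme1 (55578123) start upstream of the windows shown. The bases before those starts were not searched, and no interferon element other than the response element was searched. A lack of a match therefore holds for these windows and letters only. Windows were found for 42 of the 50 members. The response element letters occurred in 7 of the 42 (16.7%) and in 9.76% of the windows of all 27025 genes. The antioxidant response element, to which NRF1 and NRF2 bind, was searched by its core. A wide form of that core, TGANNNNGC, which leaves the letter after TGA open, occurred in 24 members (57.1%) and in 45.0% of all genes. Its narrower form TGACNNNGC, whose matches all lie within those, occurred in 14.3% of members and in 14.0% of all genes. The CCAAT box occurred in 35.7% of members and in 41.1% of all genes. These are matches of letters in a short window, not sites.

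In Hepa1 cells, ferroptotic medium raised most members and in MEFs it lowered more than it raised. In Hepa1, 28 of 48 members were called higher and 8 lower, where 58.1% of all 13169 genes tested were called, 29.3% higher and 28.8% lower. The median change of the members was 0.14, against 0.00446 over all genes. In MEFs, 4 members were called higher and 16 lower, where 55.0% of all 14441 genes tested were called, 27.8% higher and 27.2% lower, with a median of -0.07 against 0.0033 over all genes. The MEF split depended on scaling: without scaling beyond total counts, which moves the median of all genes up to 0.072, 9 members were higher and 8 lower. Of all 14441 genes, 5211 were called higher and 2957 lower in MEFs under that setting, so higher calls outnumbered lower ones there. Only 4 members were called higher in both cells, namely Psmb9, Psmb10 and the ATPases Psmc4 and Psmc5, and 5 were called lower in both, namely Psmd2, Psmd4, Psmd8, Psme3 and Psme4. There were 9 members called higher in Hepa1 and lower in MEFs, all of them subunits of the 20S core. Over the 12042 genes tested in both cells, 9.86% were called higher in both, where the members had 8.33%, and 10.4% lower in both, where the members had 10.4%. Calls of higher in Hepa1 and lower in MEFs made up 7.62% of those genes and 18.8% of the members, and the reverse pair 7.66% of the genes and 0 members. Tested directly, the response in Hepa1 minus the response in MEFs was called positive for 22 members and negative for 3, where 44.2% of all 15627 genes tested were called, 23.3% positive and 20.9% negative.

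**Figure D1:**
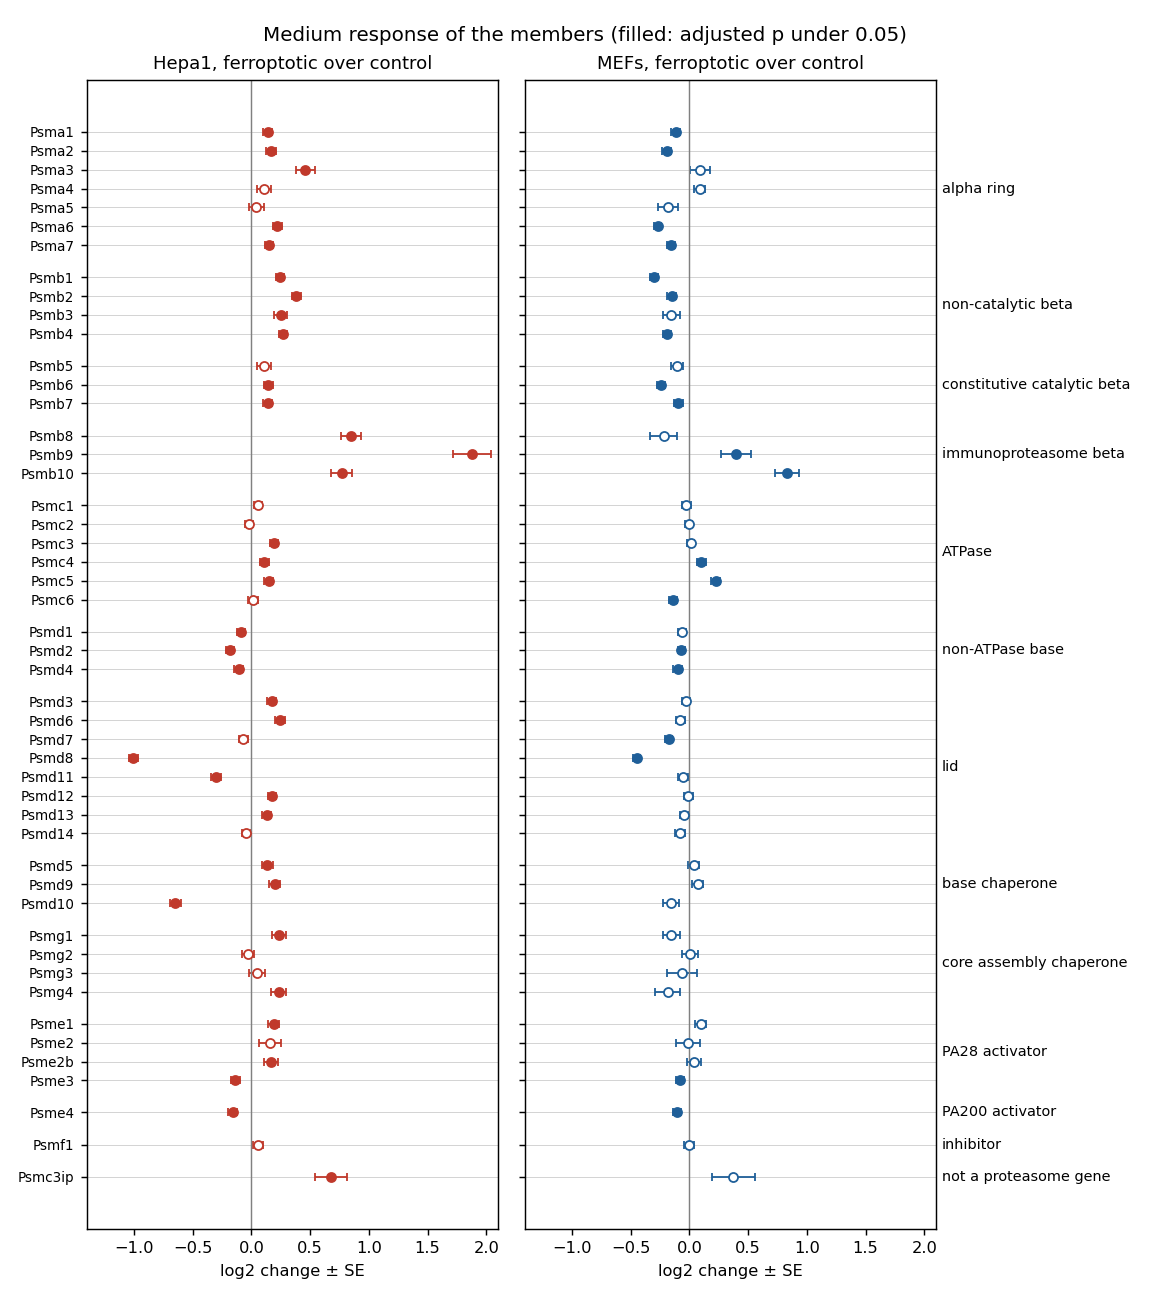
Log2 change of each tested member in ferroptotic over control medium, in Hepa1 (left) and MEFs (right), with the standard error, grouped by role; filled points have an adjusted p under 0.05. Psmb9 in Hepa1 lies at 1.88 and Psmd8 at -1.01, and the alpha and beta subunits lie right of 0 in Hepa1 and mostly left of 0 in MEFs.

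All 3 immunoproteasome subunits rose in Hepa1 in ferroptotic medium, by more than any constitutive subunit did. Psmb9 (LMP2), which replaces the caspase-like subunit Psmb6, had 5.08, 4.81 and 4.70 CPM in ferroptotic medium, against 1.57, 1.05 and 1.35 CPM in control medium. Each ferroptotic library lay above every control library, and the change was 1.88 (SE 0.162, adjusted p = 7.36e-11, edgeR). Psmb9 sits on chromosome 17 (34181987 to 34187764, GRCm38, minus strand, ENSMUSG00000096727), next to Tap1. Psmb8 (LMP7), which replaces the chymotrypsin-like subunit Psmb5, had 14.0, 12.4 and 13.3 CPM in ferroptotic medium, against 7.40, 7.11 and 7.51 CPM in control medium. The groups did not overlap, and the change was 0.85 (SE 0.0842, adjusted p = 1.18e-09, edgeR). Psmb8 lies on the same chromosome (34197721 to 34201454, plus strand, ENSMUSG00000024338). Psmb10 (MECL-1), which replaces the trypsin-like subunit Psmb7 and lies on chromosome 8 (105935735 to 105938444, minus strand, ENSMUSG00000031897), had 15.9, 18.6 and 19.0 CPM in ferroptotic medium, against 12.1, 9.51 and 9.69 CPM in control medium. Again no libraries overlapped, with a change of 0.77 (SE 0.088, adjusted p = 1.8e-08, edgeR).

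In MEFs the immunoproteasome subunits did not move as a set. Psmb10 had 12.2, 10.5 and 12.4 CPM in ferroptotic medium, against 5.68, 7.26 and 6.79 CPM in control medium, a change of 0.83 (SE 0.104, adjusted p = 1.31e-09, edgeR). Psmb9 had 5.92, 5.74 and 6.69 CPM in ferroptotic medium, against 4.76, 4.21 and 5.08 CPM in control medium. Its ferroptotic libraries were all higher, with a change of 0.39 (SE 0.128, adjusted p = 0.0073, edgeR), but the call was lost with DESeq2 (adjusted p = 0.0526), without control replicate 2 (0.32, adjusted p = 0.0566) and without ferroptotic replicate 3 (0.32, adjusted p = 0.0545). Psmb8 had 6.52, 5.58 and 5.84 CPM in ferroptotic medium, against 7.37, 6.48 and 7.08 CPM in control medium. Those groups overlapped, and the change of -0.22 (SE 0.116, adjusted p = 0.106, edgeR) was not called. The response in Hepa1 exceeded that in MEFs by 1.48 for Psmb9 (SE 0.212, adjusted p = 1.07e-07) and by 1.07 for Psmb8 (SE 0.142, adjusted p = 2.24e-08). For Psmb10 the difference was -0.06 (SE 0.145, adjusted p = 0.802), which was not called and changed sign when single replicates were left out.

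**Figure D2:**
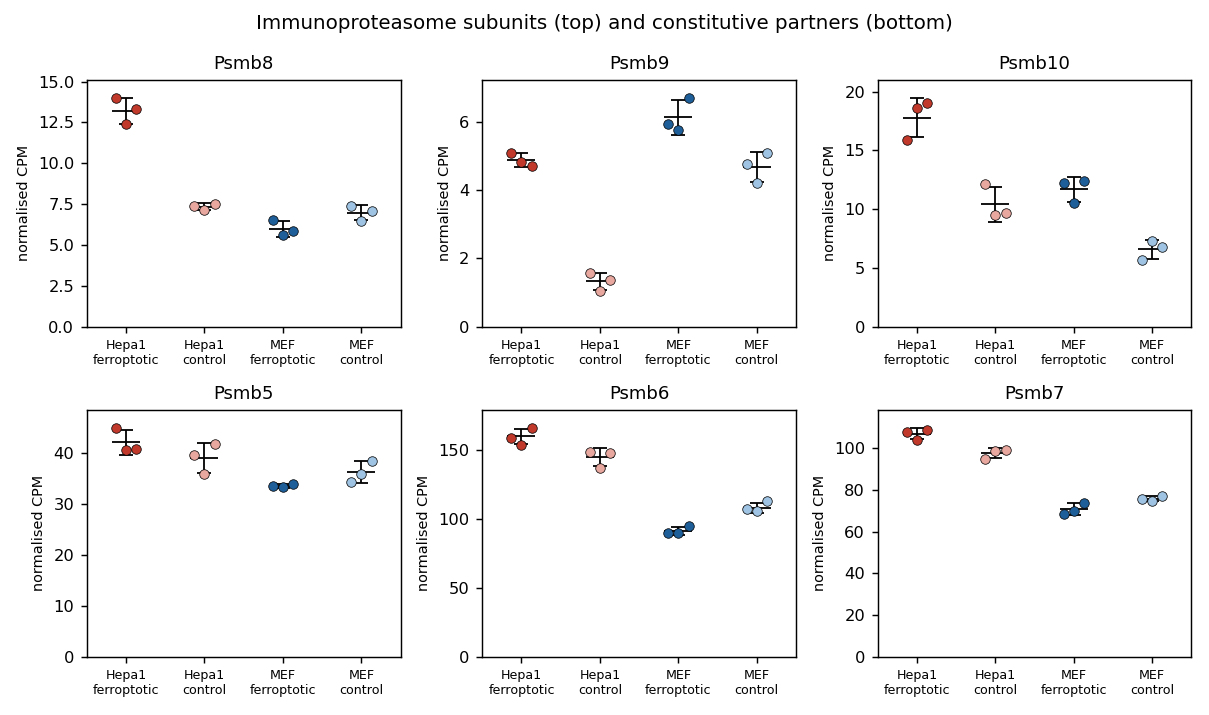
Normalised CPM per library of the immunoproteasome subunits (top) and of the constitutive subunits they replace (bottom), with the group mean and SD (n = 3 each). Psmb9 in Hepa1 stands at 4.87 CPM in ferroptotic medium and 1.32 CPM in control medium, and each lower panel spans a far smaller relative range.

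Of the constitutive catalytic subunits, Psmb6 and Psmb7 rose slightly in Hepa1 and fell slightly in MEFs, and Psmb5 was called in neither in the main test. Psmb6 had 159, 154 and 166 CPM in Hepa1 in ferroptotic medium, against 149, 137 and 148 CPM in control medium, a change of 0.14 (SE 0.0379, adjusted p = 0.00188, edgeR). In MEFs it had 89.9, 89.7 and 94.9 CPM in ferroptotic medium, against 107, 106 and 113 CPM in control medium, a change of -0.24 (SE 0.0362, adjusted p = 1.22e-07, edgeR). Neither pair of groups overlapped. Psmb7 changed by 0.14 in Hepa1 (108, 104 and 109 CPM in ferroptotic medium, against 94.9, 98.7 and 99.3 CPM in control medium; adjusted p = 0.0024, edgeR). In MEFs Psmb7 changed by -0.09 (68.6, 69.9 and 73.9 CPM in ferroptotic medium, against 75.9, 74.7 and 77.0 CPM in control medium; adjusted p = 0.0418, edgeR). That last call was lost under DESeq2, without scaling, with a CPM filter and without any of 4 single replicates. Psmb5 had 44.8, 40.5 and 40.7 CPM in Hepa1 in ferroptotic medium, against 39.6, 35.9 and 41.7 CPM in control medium, a change of 0.11 that was not called (SE 0.0571, adjusted p = 0.113, edgeR). In the fibroblasts it had 33.4, 33.3 and 33.9 CPM in ferroptotic medium, against 34.3, 35.8 and 38.4 CPM in control medium, a change of -0.10 that was not called (SE 0.054, adjusted p = 0.0956, edgeR). Differences between the responses were called for all of Psmb5 (0.21), Psmb6 (0.39) and Psmb7 (0.23). That of Psmb5 was lost without scaling (adjusted p = 0.0531), with DESeq2 (adjusted p = 0.0699) and without any of 5 single replicates. Within a cell, Psmb5 became called in Hepa1 without scaling (0.15, adjusted p = 0.0223) and without control replicate 3 (adjusted p = 0.0338), and in MEFs without control replicate 1 (-0.14, adjusted p = 0.0385).

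Set against each other per length of exon, the immunoproteasome subunits were a minor part of the catalytic transcripts in every group. Their share was 8.76% ± 0.50 in Hepa1 in ferroptotic medium and 5.48% ± 0.499 in control medium (SD, n = 3 each), a ratio of 1.6. In MEFs the share was 8.78% ± 0.566 in ferroptotic medium and 5.65% ± 0.172 in control medium, a ratio of 1.55. Per length, the shares of the 2 cells overlapped in each medium. Without length they did not overlap in control medium, with 6.93, 6.11 and 6.03% in Hepa1 and 7.59, 7.66 and 7.67% in MEFs. Psmb8 stood at 0.0838 of Psmb5 in Hepa1 in ferroptotic medium and at 0.0501 in control medium, and in MEFs at 0.0474 in ferroptotic medium and 0.0514 in control medium. Psmb9 stood at 0.0156 of Psmb6 in Hepa1 in ferroptotic medium and at 0.00466 in control medium, and in MEFs at 0.0341 in ferroptotic medium and 0.0221 in control medium. Psmb10 stood at 0.333 of Psmb7 in Hepa1 in ferroptotic medium and at 0.215 in control medium, and in MEFs at 0.331 in ferroptotic medium and 0.174 in control medium. Psmb10 was thus the most abundant immunoproteasome transcript per length in all 4 groups, and no test was made of these shares.

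**Figure D3:**
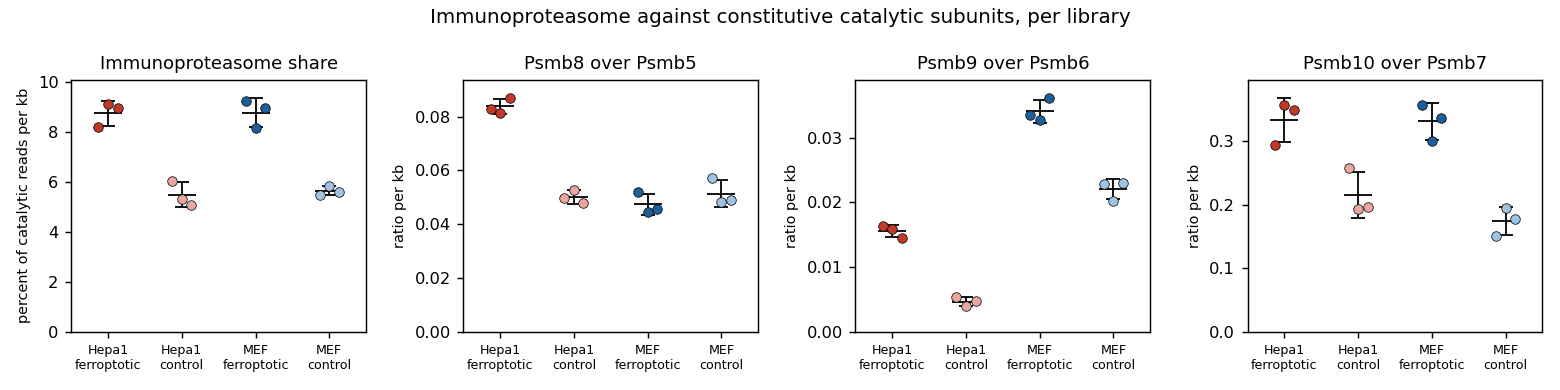
Share of Psmb8, Psmb9 and Psmb10 in the catalytic transcripts per kilobase (percent, left) and the ratio of each to its constitutive partner, per library with group mean and SD (n = 3 each). All ferroptotic libraries have shares of at least 8.15% and all control libraries of at most 6.04%, while Psmb8 over Psmb5 is raised in Hepa1 in ferroptotic medium and not in MEFs.

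The other subunits of the 20S core, which build the rings around the catalytic sites, showed the same opposition. Counting the constitutive catalytic subunits with them, 11 of 14 core subunits were called higher and 0 lower in Hepa1, with a median of 0.16, and the same counts came with DESeq2 size factors. In MEFs 0 were called higher and 9 lower, with a median of -0.16, and without scaling beyond total counts 1 was higher and 6 were lower. Of all 14441 genes, 5211 were called higher and 2957 lower in MEFs without that scaling. The difference of responses was positive and called for 12 of the 14 and negative for 0, with a median of 0.37. Without that scaling the counts were 11 and 0, where 3420 of all 15627 genes were called positive and 3503 negative. Of all genes tested, 29.3% were called higher and 28.8% lower in Hepa1, and 27.8% higher and 27.2% lower in MEFs. For the difference of responses, 23.3% of all genes were called positive and 20.9% negative. Psmb1, a non-catalytic beta subunit, had 171, 168 and 180 CPM in Hepa1 in ferroptotic medium, against 141, 150 and 148 CPM in control medium. MEF levels were 123, 126 and 121 CPM in ferroptotic medium, against 148, 150 and 159 CPM in control medium. Every ferroptotic library lay above the control libraries in Hepa1 and below them in MEFs. The changes were 0.24 in Hepa1 (SE 0.0355, adjusted p = 1.34e-06) and -0.30 in MEFs (SE 0.0328, adjusted p = 1.67e-11), and their difference was 0.55 (SE 0.0527, adjusted p = 5.24e-12).

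Psmb2, another non-catalytic beta subunit, had 93.1, 93.6 and 96.1 CPM in Hepa1 in ferroptotic medium, against 71.6, 73.7 and 71.7 CPM in control medium. Its MEF libraries had 75.2, 74.9 and 76.7 CPM in ferroptotic medium, against 80.7, 84.6 and 87.1 CPM in control medium. The groups did not overlap in either cell, with changes of 0.38 in Hepa1 (adjusted p = 1.64e-09) and -0.15 in MEFs (adjusted p = 0.000771, and 0.0686 without scaling), and a difference of 0.54 (SE 0.0558, adjusted p = 4.62e-11). Psma6, a subunit of the alpha ring that gates entry to the core, had 134, 136 and 136 CPM in Hepa1 in ferroptotic medium, against 110, 121 and 117 CPM in control medium. The MEF libraries had 103, 104 and 105 CPM in ferroptotic medium, against 126, 127 and 124 CPM in control medium. It changed by 0.22 in Hepa1 (adjusted p = 1.21e-05) and by -0.27 in MEFs (adjusted p = 5.51e-10), and the difference was 0.49 (SE 0.0521, adjusted p = 6.79e-11). Among the remaining core subunits the changes in Hepa1 ran up to 0.46 for Psma3, and Psma4 and Psma5 were called in neither cell.

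In the 19S particle calls went in both directions within 1 cell. In Hepa1 7 of 17 subunits (41.2%) were called higher and 5 (29.4%) lower, where 29.3% of all genes were called higher and 28.8% lower. In MEFs 2 (11.8%) were higher and 5 (29.4%) lower, where 27.8% of all genes were called higher and 27.2% lower, so the share of lower calls was near that of all genes in both cells. Without scaling beyond total counts these splits were 8 and 3 in Hepa1 and 3 and 2 in MEFs. All genes then had 4515 higher and 3169 lower of 13169 in Hepa1, and 5211 and 2957 of 14441 in MEFs. Of the ATPases, which unfold the substrate, Psmc3 (0.19), Psmc4 (0.11) and Psmc5 (0.15) rose in Hepa1. Psmc6 was called lower in MEFs and was not called in Hepa1. Psmc5 had 97.5, 93.1 and 104 CPM in MEFs in ferroptotic medium, against 85.1, 80.3 and 87.1 CPM in control medium. It rose by 0.23 there (SE 0.0392, adjusted p = 2.35e-06, edgeR). Psmc4 had 82.8, 85.4 and 90.8 CPM in MEFs in ferroptotic medium, against 77.0, 82.6 and 82.6 CPM in control medium. Its change of 0.10 (adjusted p = 0.0264, edgeR) was lost with DESeq2 (adjusted p = 0.108), without a count filter (adjusted p = 0.0563), without control replicate 1 (0.07) and without ferroptotic replicate 3 (0.06). Its call in Hepa1 (adjusted p = 0.0195) was lost without ferroptotic replicate 1 (0.08, adjusted p = 0.144) or 3 (0.11, adjusted p = 0.0623).

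The base subunits Psmd1, Psmd2 and Psmd4, which hold the docking sites for ubiquitin and its shuttle proteins, were all lower in Hepa1. Psmd2 had 257, 256 and 260 CPM in Hepa1 in ferroptotic medium, against 288, 293 and 296 CPM in control medium, a change of -0.18 (SE 0.0317, adjusted p = 1.75e-05, edgeR). In MEFs it had 230, 228 and 232 CPM in ferroptotic medium, against 237, 249 and 239 CPM in control medium. That change of -0.07 (adjusted p = 0.0375) was lost under DESeq2 (adjusted p = 0.0763), with a CPM filter, without any of 3 single replicates and without scaling, where it was -0.0006. In Hepa1, too, the base set was called for only 1 of 3 subunits without scaling beyond total counts.

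Psmd8 (Rpn12), a lid subunit that is among the last to join the particle, had the steepest fall of all members in both cells. It lies on chromosome 7 (29174188 to 29180701, GRCm38, minus strand, ENSMUSG00000030591). In Hepa1 it had 172, 168 and 174 CPM in ferroptotic medium, against 330, 337 and 366 CPM in control medium. In the fibroblasts it had 173, 171 and 183 CPM in ferroptotic medium, against 226, 248 and 248 CPM in control medium. On this scale the ferroptotic libraries of both cells lay at a like level, below both sets of control libraries, while without scaling beyond total counts Hepa1 was higher by 0.50 in ferroptotic medium. The changes were -1.01 in Hepa1 (SE 0.0367, adjusted p = 4.09e-19) and -0.45 in MEFs (SE 0.0326, adjusted p = 2.29e-17), and their difference was -0.55 (SE 0.0554, adjusted p = 1.57e-11).

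No other lid subunit fell as far. Psmd11 (Rpn6), the lid subunit that clamps the lid to the core, had 65.4, 64.6 and 66.8 CPM in Hepa1 in ferroptotic medium, against 80.2, 83.7 and 78.8 CPM in control medium, a change of -0.30 (SE 0.0408, adjusted p = 3.41e-07, edgeR). MEF levels were 62.1, 65.1 and 66.1 CPM in ferroptotic medium, against 69.2, 66.8 and 65.3 CPM in control medium. Those MEF groups overlapped, the change of -0.05 was not called (adjusted p = 0.278), and the difference between the cells was -0.24 (SE 0.0593, adjusted p = 0.000637). Psmd3 (0.17), Psmd6 (0.24), Psmd12 (0.17) and Psmd13 (0.13) rose in Hepa1, and Psmd7 fell in MEFs by 0.18. Psmd14, the deubiquitinase of the lid, was called in neither cell, with changes of -0.04 in Hepa1 and -0.08 in MEFs.

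The chaperones that assemble the particle split in Hepa1, with 4 of 7 higher and 1 lower, and none was called in MEFs. There 1 was called lower with DESeq2 size factors and 1 higher without scaling. Of all genes tested, 29.3% were called higher and 28.8% lower in Hepa1, and 55.0% were called in MEFs. Psmd10 (gankyrin), which escorts the ATPase Psmc4 and lies on chromosome X (140948429 to 140956728, GRCm38, minus strand, ENSMUSG00000031429), was the one that fell. It had 35.5, 36.0 and 34.8 CPM in Hepa1 in ferroptotic medium, against 56.2, 54.6 and 56.2 CPM in control medium, a change of -0.65 (SE 0.0471, adjusted p = 2e-12, edgeR). Its MEF libraries had 21.1, 18.8 and 21.9 CPM in ferroptotic medium, against 24.8, 21.7 and 22.8 CPM in control medium. Those groups overlapped, and the change of -0.16 lay at the threshold (adjusted p = 0.0507, edgeR, and 0.0478 with DESeq2 size factors). The difference was -0.49 (SE 0.0831, adjusted p = 2.87e-06). The other base chaperones Psmd5 (0.14) and Psmd9 (0.20) rose in Hepa1, as did the core chaperones Psmg1 (0.24) and Psmg4 (0.23), whereas Psmg2 (-0.03) and Psmg3 (0.05) were not called.

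**Figure D4:**
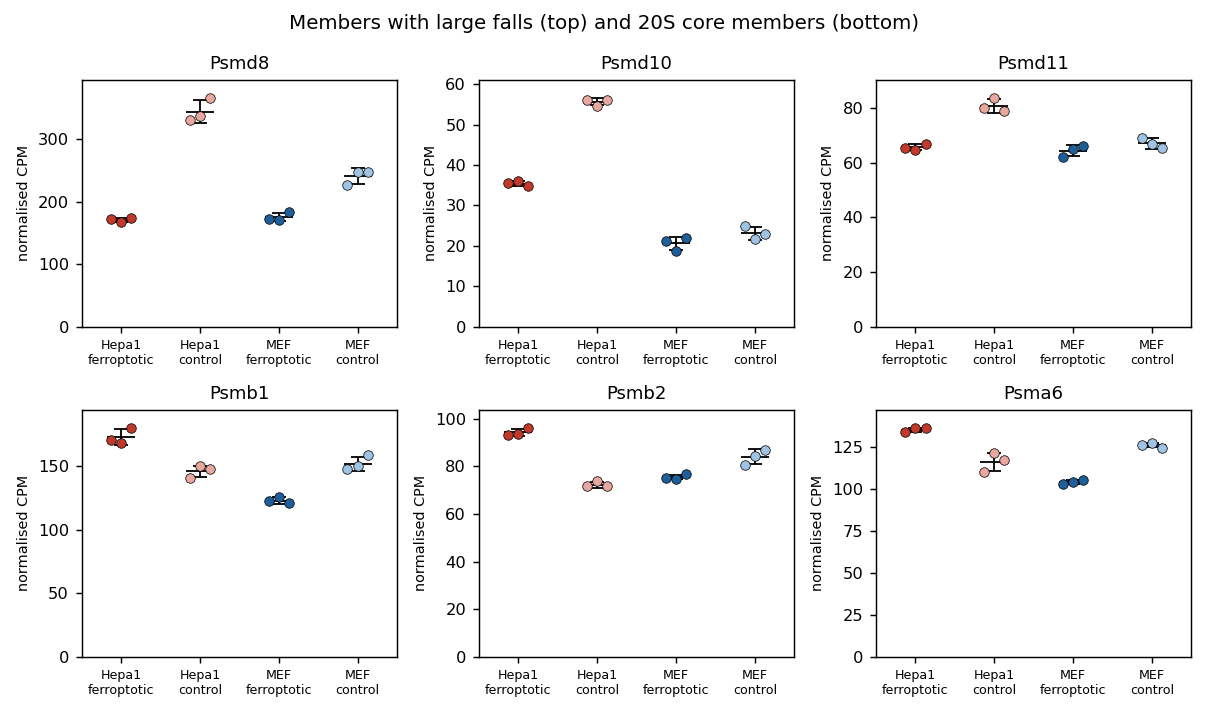
Normalised CPM per library of 3 members with large falls in Hepa1 (top) and of 3 members of the 20S core (bottom), with group mean and SD (n = 3 each). Psmd8 stands at 171 and 344 CPM in Hepa1 and at 176 and 241 CPM in MEFs in ferroptotic and control medium, while Psmb1, Psmb2 and Psma6 are higher in ferroptotic medium in Hepa1 and lower in MEFs.

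Of the activators that open the core, those linked to interferon moved little and the nuclear ones fell slightly. Psme1 (PA28 alpha) had 48.8, 45.9 and 49.3 CPM in Hepa1 in ferroptotic medium, against 42.3, 41.3 and 43.0 CPM in control medium. The groups did not overlap, with a change of 0.19 (SE 0.0472, adjusted p = 0.00116, edgeR). The MEF libraries had 49.4, 47.8 and 52.3 CPM in ferroptotic medium, against 47.7, 45.7 and 47.0 CPM in control medium, a change of 0.10 (adjusted p = 0.0827) that was called only without scaling (0.16, adjusted p = 0.00303) and without ferroptotic replicate 2 (0.12, adjusted p = 0.0397). Psme2 (PA28 beta) had 7.66, 7.72 and 8.39 CPM in Hepa1 in ferroptotic medium, against 7.36, 7.49 and 6.46 CPM in control medium, a change of 0.16 that was not called (adjusted p = 0.165, edgeR). In MEFs it had 10.1, 10.3 and 8.20 CPM in ferroptotic medium, against 9.51, 10.3 and 9.09 CPM in control medium, a change of -0.01 (adjusted p = 0.937, edgeR). Its near-copy Psme2b, with which it shares sequence, rose by 0.17 in Hepa1 and was not called in MEFs (0.04).

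Psme3 (PA28 gamma), the activator of the nucleus, had 169, 165 and 170 CPM in Hepa1 in ferroptotic medium, against 179, 190 and 185 CPM in control medium, a change of -0.14 (SE 0.0344, adjusted p = 0.00129, edgeR). In the fibroblasts it had 108, 108 and 113 CPM in ferroptotic medium, against 117, 114 and 118 CPM in control medium. That change of -0.08 (adjusted p = 0.0467) was lost in 9 of the alternatives, among them limma-voom (adjusted p = 0.0524). Psme4 (PA200) had 236, 224 and 233 CPM in Hepa1 in ferroptotic medium, against 245, 279 and 251 CPM in control medium, a change of -0.16 (SE 0.0397, adjusted p = 0.00103, edgeR). MEF levels were 129, 131 and 122 CPM in ferroptotic medium, against 138, 135 and 137 CPM in control medium, a change of -0.10 (adjusted p = 0.00663), lost without scaling (adjusted p = 0.39) and without ferroptotic replicate 3 (-0.07, adjusted p = 0.0906). The inhibitor Psmf1 (PI31) was called in neither cell, with changes of 0.05 in Hepa1 and -0.0021 in MEFs. None of the differences between the responses of Psme1, Psme2, Psme3, Psme4 and Psmf1 was called.

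Psmc3ip met the symbol rule but encodes a cofactor of meiotic recombination, not a proteasome protein. It had 6.68, 4.90 and 5.19 CPM in Hepa1 in ferroptotic medium, against 3.34, 3.28 and 3.88 CPM in control medium. The groups did not overlap and the change was 0.68 (SE 0.135, adjusted p = 9.91e-05, edgeR). Its MEF libraries had 3.07, 2.82 and 3.52 CPM in ferroptotic medium, against 1.91, 3.05 and 2.30 CPM in control medium, a change of 0.37 that was not called (adjusted p = 0.0751, edgeR).

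Between the cells, the members were higher in Hepa1 more often than in MEFs under each scaling, but the size of the split depended on the scaling. In ferroptotic medium 33 of 48 were called higher and 8 lower in Hepa1 than in MEFs, where 88.2% of all genes tested were called, 41.5% higher and 46.7% lower. In control medium 26 were higher and 13 lower, where 86.6% of all genes were called, 40.7% higher and 46.0% lower. Without scaling beyond total counts, the median of all genes was 0.46 in ferroptotic medium and 0.49 in control medium, against -0.08 in each with scaling. The counts were then 45 higher and 1 lower in ferroptotic medium and 40 higher and 3 lower in control medium. Of all 15627 genes, 9028 were then called higher and 5109 lower in ferroptotic medium, and 9101 higher and 5004 lower in control medium. The core assembly chaperones Psmg3 and Psmg4 were the farthest above in ferroptotic medium, by 1.77 and 1.59, and in control medium Psmg3 (1.66), the base chaperone Psmd10 (1.27) and Psmg4 (1.17) were. The farthest below was the alpha subunit Psma4 in ferroptotic medium, at -0.75 (-0.207 without scaling), and Psmb9 in control medium, at -1.82 (adjusted p = 2.78e-13, and -1.25 without scaling). In ferroptotic medium Psmb9 stood at -0.33 (adjusted p = 0.00968), and without scaling at 0.21, not called (adjusted p = 0.101). Psmb8 did not differ beyond the spread in control medium (0.07, adjusted p = 0.502) and was higher by 1.15 in Hepa1 in ferroptotic medium (adjusted p = 3.62e-15), and Psmd8 was not called in ferroptotic medium (-0.04, adjusted p = 0.364) and was higher by 0.52 in control medium. Without scaling, Psmb8 was called higher in control medium too (0.64), and Psmd8 was called higher in both media (0.50 in ferroptotic medium).

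Levels per kilobase of exon spread widely among subunits of the same complex. Psmb4, a non-catalytic beta subunit, was the highest over the group means, with 146 CPM per kilobase in Hepa1 in ferroptotic medium, 121 in Hepa1 in control medium, 86.9 in MEFs in ferroptotic medium and 99.5 in MEFs in control medium. Psmb9 was the lowest of those tested, with 1.33, 0.362, 1.67 and 1.28 CPM per kilobase in the same order of groups. Psma3 was low too (3.14, 2.29, 3.66 and 3.44), and 22.0% of its 50-base windows occur in other genes. Psmb3, with 55.8% of its windows shared, stood higher, at 14.3, 12.1, 7.07 and 7.88. The part of shared sequence in these levels was not tested. Psmb8 ranked 46th, Psmb9 48th and Psmb10 41st of the 50 by the mean of the groups.

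**Figure D5:**
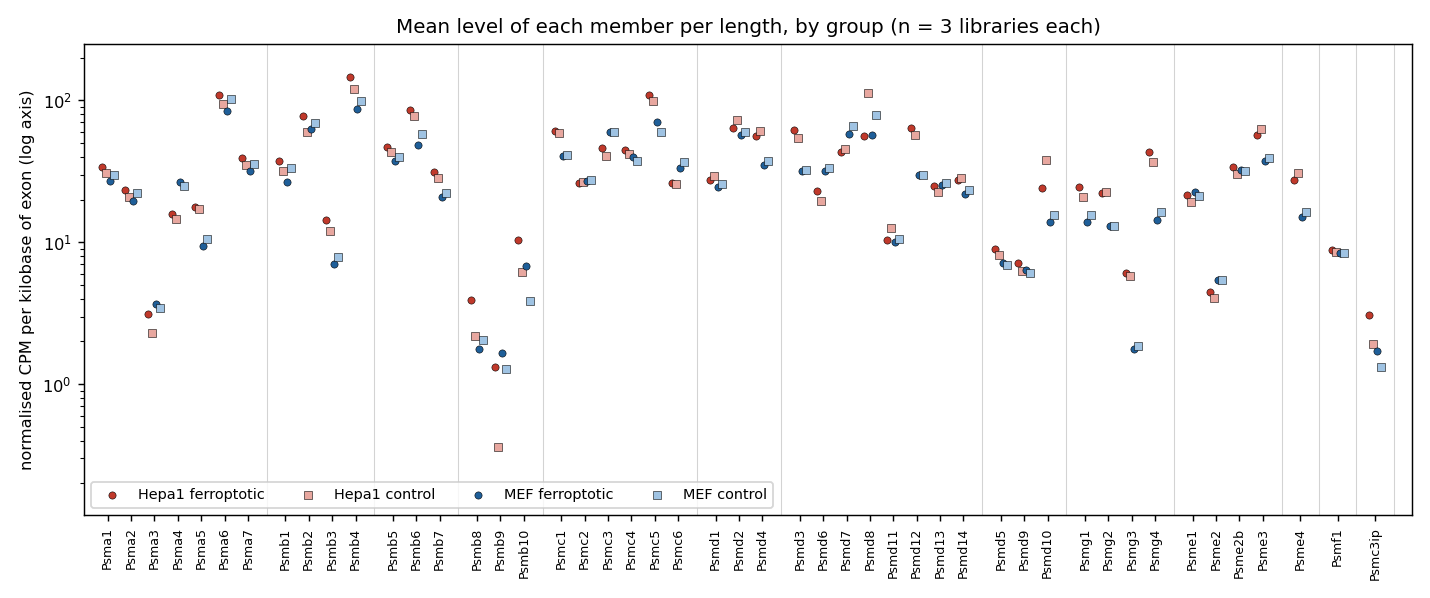
Mean normalised CPM per kilobase of exon (log axis) of the 48 tested members, ordered by role, in the 4 groups (n = 3 libraries each). Within each group, Psmb8, Psmb9 and Psmb10 lie below all other 20S subunits except Psma3, and Psmb9 in Hepa1 in control medium is the lowest point at 0.362.

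Genes that work beside the proteasome were read from lists, named here without a test of the list. Among 14 genes of class I antigen processing, which use the peptides that the immunoproteasome makes, 7 were higher and 2 lower in Hepa1. Of 13 tested in MEFs, 9 were higher and 3 lower. The share called was 64.3% in Hepa1, near the 58.1% of all genes tested, and 92.3% in MEFs, against 55.0%. By direction, all genes had 29.3% higher and 28.8% lower in Hepa1, and 27.8% higher and 27.2% lower in MEFs. Irf1, a transcription factor of the interferon response, rose by 0.24 in Hepa1 and by 0.46 in MEFs. The peptide transporter gene Tap1 rose by 0.60 in Hepa1 and 0.33 in MEFs, and the peptide trimmer Erap1 rose by 0.63 in Hepa1 and 0.69 in MEFs. Tapbp, which loads peptides, rose by 0.50 in MEFs and was not called in Hepa1 (0.08), and the chaperone calreticulin (Calr) fell by 0.43 in Hepa1 and 0.38 in MEFs. Transcripts of the ligands Ifng and Ifna4 had 0 reads in all 12 libraries. Ifnb1 had 0.041, 0 and 0 CPM in Hepa1 in ferroptotic medium, against 0.296, 0.126 and 0.218 CPM in control medium, and 0 in MEFs. These levels rest on few reads, since 3 reads make 0.128 to 0.161 CPM of a library's total counts, and no change is read from them.

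Among 11 tested proteasome partners 2 were higher and 7 lower in Hepa1, and 2 higher and 3 lower in MEFs. The share called was 81.8% in Hepa1 and 45.5% in MEFs, against 58.1% and 55.0% of all genes tested. Without scaling beyond total counts the splits were 4 and 4 in Hepa1 and 4 and 1 in MEFs. Ubr4, a ubiquitin ligase that binds proteasomes, fell by 0.33 in Hepa1 and rose by 0.15 in MEFs. Sem1, the small lid subunit outside the Psm names, rose by 0.26 in Hepa1 and 0.12 in MEFs, and Akirin2, which carries proteasomes into the nucleus, fell by 0.23 in Hepa1 and 0.46 in MEFs. Pomp, which guides the maturation of the core, rose by 0.15 in Hepa1 (adjusted p = 0.00183) and was not called in MEFs (-0.04). On the axis of NRF1, the factor that raises proteasome genes when proteasomes fail, 3 of 13 tested genes were higher and 5 lower in Hepa1. In MEFs 2 were higher and 5 lower (3 and 4 without that scaling). The share called, 61.5% in Hepa1 and 53.8% in MEFs, was near the 58.1% and 55.0% of all genes. Nfe2l1, which encodes NRF1, had 618, 608 and 631 CPM in Hepa1 in ferroptotic medium, against 744, 755 and 763 CPM in control medium, a change of -0.28 (adjusted p = 3.64e-09). The MEF libraries had 759, 773 and 752 CPM in ferroptotic medium, against 766, 772 and 782 CPM in control medium, a change that was not called (-0.02, adjusted p = 0.58). Ddi2, the protease that activates NRF1, changed by -0.45 in Hepa1 and by -0.07 in MEFs (adjusted p = 0.0515), and Ngly1, which strips its sugars, rose by 0.48 in Hepa1 and 0.23 in MEFs. Ubqln2, a shuttle that brings substrates, fell by 0.59 in Hepa1 and was not called in MEFs (-0.05). Of 6 genes for ubiquitin and its E1 enzymes 1 was higher and 4 lower in Hepa1, and 2 higher and 4 lower in MEFs. The share called was 83.3% in Hepa1 and 100% in MEFs, against the same 58.1% and 55.0%. Without that scaling the splits were 1 and 2 in Hepa1 and 2 and 2 in MEFs. Over all genes, no scaling gave 4515 higher and 3169 lower of 13169 in Hepa1, and 5211 and 2957 of 14441 in MEFs.

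Markers of leukocytes, cells rich in immunoproteasome, were low. The summed level of the 10 markers ran from 9.11 to 10.8 CPM in Hepa1 in ferroptotic medium, against 23.3 to 28.4 CPM in control medium, and Ptprc, Cd3e, Cd79a and Itgam were at 0 in both. In MEFs the sum ran from 8.71 to 10.5 CPM in ferroptotic medium, against 5.37 to 6.70 CPM in control medium, with Ptprc, Cd3e and Adgre1 at 0 in both. The sums hide markers that moved in opposite directions. Of 4 markers tested in Hepa1, Adgre1 (1.60, 1.91 and 1.42 CPM in ferroptotic medium, against 0.0423, 0.0421 and 0 CPM in control medium) and Lyz2 (1.07) were called higher, and Cd68 (-2.83) and Csf1r (-0.55) lower. Of 2 tested in MEFs, Lyz2 was called higher (1.30) and Cd68 was not called. The part of these cells in the rises of the immunoproteasome subunits was not tested. Of 6 hepatocyte markers, Apoa1 and Ttr had 0 reads in Hepa1, and the sum ran from 1330 to 1450 CPM in ferroptotic medium, against 403 to 422 CPM in control medium. The 7 fibroblast markers summed to 44700 to 46500 CPM in MEFs in ferroptotic medium, against 54700 to 58200 CPM in control medium. In Hepa1 they summed to 2210 to 2320 CPM in ferroptotic medium, against 1520 to 1770 CPM in control medium. These sums hide Dcn, which was higher in Hepa1 than in MEFs, by 4.13 in ferroptotic medium and 5.73 in control medium. The other fibroblast markers were lower in Hepa1 in both media. Of 5 fibroblast markers tested in Hepa1, Col1a1, Col1a2, Col3a1 and Dcn were called higher and 0 lower. Of these 7, Col1a1 (-0.32), Col1a2, Col3a1 (-0.50) and Thy1 (-0.81) fell in MEFs, while Dcn (1.77) and Lum rose, and their part in the falls of the core subunits was not tested.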

How the data were processed

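RNA was measured in 12 libraries. The authors deposited raw read counts per Ensembl gene. The submitters' processing notes name the build GRCm38 (mm10) and the tools STAR 2.7.10a, HTSeq 0.9.1, Trimmomatic 0.39 and FastQC 0.11.9. Neither a strand setting nor an annotation release is given in the sources used here. The single files and the table agreed (0 values differed), 5 summary lines were set apart, and 55227 of 55487 gene identifiers had a name in GENCODE M21. Reads on no gene were 2.00 to 2.58% and ambiguous reads 3.66 to 4.03% of a library. Exons of 4 members overlap a gene on the same strand and those of 12 a gene on the other strand. Reads of the pseudogene Psmb6-ps2 came to 1506 in all.

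Groups came from the titles. Each cell was tested on its 6 libraries, and the difference of responses and the contrasts of cells on all 12, with edgeR 4.0.16 in R 4.3.3 (filterByExpr, TMM, quasi-likelihood F-test, Benjamini-Hochberg adjustment, threshold 0.05), after tests on simulated counts. The SE is the size of the change divided by the square root of F. Length is the union of exons. The fits gave a biological coefficient of variation of 3.08% (Hepa1), 2.45% (MEFs) and 2.89% (all libraries). No label states that replicates came from separate cultures. The p-values therefore reflect the variation among these libraries alone, and that may be technical. Replicate pairs differed by more than sampling noise (chi-square per degree of freedom 1.35 to 4.13).

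The members and lists were chosen with earlier results of these data known. Given with full values are the catalytic pairs, Psme1 to Psme4 and, per comparison, up to 4 called members with the largest rise and 4 with the largest fall among those with a mean of at least 1 CPM. Other members have their change only, or are counted and not reported singly here. From each pathway list, up to 4 genes with the smallest adjusted p are eligible by rule, and Tap1, Irf1, Ifnb1, Nfe2l1, Ngly1 and Pomp are given besides, chosen after their values were seen. Some genes of these lists are counted but not reported singly here. The results were recomputed with the Wald test of DESeq2 1.42.0, with its size factors, without scaling, with voom in limma 3.58.1, with other filters, with a replicate block, without each replicate in turn, and with other lengths for the shares.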

Additional observations from a re-analysis of the deposited data

Results flagged for a closer look

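The test of the difference itself flagged 11 of the 20 members given with full values (edgeR, adjusted over all 15627 genes tested). For these the response to ferroptotic medium in Hepa1 was not that in MEFs. Some of the 20, among them Psmb9, Psmb8 and Psmd8, were picked by this same test, so their count cannot be set against all genes. Of all 48 tested members 25 (52.1%) were called, where 44.2% of all genes were. The difference, Hepa1 minus MEFs on the log2 scale, was 1.48 for Psmb9 and 1.07 for Psmb8, the immunoproteasome subunits. Among the subunits of the 20S core it was 0.55 for Psmb1, 0.54 for Psmb2, 0.49 for Psma6, 0.39 for Psmb6, 0.23 for Psmb7 and 0.21 for Psmb5. It was -0.55 for the lid subunit Psmd8, -0.49 for the chaperone Psmd10 and -0.24 for the lid subunit Psmd11. Psmd8 fell in both cells, and Psmb9 rose in both, so for these the size of the change differed and not its direction.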

How the results depend on the processing

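The counts of members called in Hepa1 (36) and for the difference of responses (25) stayed within 1.5 times under every alternative run. In MEFs, the 4 higher and 16 lower members became 9 and 8 without scaling, and 2 members were higher with the DESeq2 Wald test. Without scaling, 5211 of all 14441 genes were called higher in MEFs and 2957 lower. Leaving out single replicates gave 33 to 36 calls in Hepa1, 24 to 26 for the difference, and 16 to 22 in MEFs, of which 2 to 5 were higher (2 without ferroptotic replicate 3) and 12 to 17 lower. Between the cells, no scaling gave 1 lower member in ferroptotic medium (8 with TMM) and, in control medium, 40 higher and 3 lower (26 and 13 with TMM). Over all 15627 genes, no scaling gave 9028 higher and 5109 lower in ferroptotic medium, and 9101 and 5004 in control medium. The immunoproteasome share without length was 10.4% in Hepa1 in ferroptotic medium and 6.36% in control medium, and 10.8% and 7.64% in MEFs in those media. With the longest transcript as length it was 8.17% in Hepa1 in ferroptotic medium and 5.44% in MEFs in control medium. Leave-one-out shares ran from 8.58 to 9.05% and from 5.20 to 5.68% in Hepa1 in ferroptotic and control medium, and from 8.55 to 9.09% and from 5.55 to 5.72% in MEFs.

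Between the cells, no scaling turned the direction of 8 called members in control medium and 7 in ferroptotic medium, each lower with TMM. Of these, Psma2, Psma6, Psmb2, Psmd13 and Psme1 in control medium and Psma3, Psmc3, Psmc6, Psmd7 and Psme2 in ferroptotic medium were then called higher. For the responses to medium and their difference, no tested member was called on either side of a change of sign. Over all alternatives run, the difference ran down to -0.1431 for Psmb10 and -0.0918 for Psme4, and the MEF change of Psme2 down to -0.0737. For Psmb10 the difference of responses was 0.0636, 0.0169 and 0.0305 without replicate 1 of Hepa1 control, Hepa1 ferroptotic and MEF control, and for Psme4 it was 0.0042 without Hepa1 control replicate 2. In MEFs, Psmd11 was 0.0146 and Psme2 0.0576 without scaling, and Psme2 was 0.035 and 0.0929 without MEF control replicate 2 and MEF ferroptotic replicate 3. The cause was not tested. Same-numbered libraries of both media did not deviate together (correlations -0.0473 to 0.0785), so the numbers were not used as pairs. With a replicate block 35 members were called in Hepa1, 21 in MEFs and 26 for the difference of responses. Psmb9 (1.05 CPM at its lowest) and Psmb8 rest on few reads, and shared sequence limits Psme2, Psme2b, Psmb5, Psmb3 and Psma5.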
